A study of Oryctolagus cuniculus with 16 samples.

Results

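The expression of 10 genes of osteoclast fusion and bone resorption was examined in the femoral head of rabbits with Perthes disease and of control rabbits. These genes were *TNFRSF11A*, *OSCAR*, *CALCR*, *NFATC1*, *DCSTAMP*, *OCSTAMP*, *CTSK*, *ACP5*, *CA2* and *CLCN7*, which were chosen by their gene symbol among the 20255 genes of the table, and each matched 1 row. After genes with low counts were removed, 9 of them were among the 15305 genes tested, and *CLCN7* was not.

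Perthes disease is a necrosis of the femoral head in childhood. Total RNA was sequenced from femoral heads of 5 wild-type rabbits in which the disease was modelled at 8 weeks of age and of 3 wild-type healthy control rabbits. In the Perthes group blood flow was interrupted surgically, by cutting the ligamentum teres and by an elastic, non-absorbable ligature around the neck of the femur. The age of the controls, any sham operation and the interval between surgery and sampling are not given in the sources used here.

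Osteoclasts are large cells with many nuclei that form when precursors of the monocyte and macrophage lineage fuse. RANK ligand binds the receptor RANK on the precursor, costimulatory receptors add a calcium signal, and the transcription factor NFATc1 then drives the genes of fusion and resorption. The mature cell seals itself onto bone, acidifies the space beneath it to dissolve mineral, and releases proteases that digest the exposed collagen, which in a necrotic femoral head is the step that removes dead bone.

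The libraries held from 26757087 to 29461482 counts, so that for the 9 tested genes the spread between rabbits limited the precision more than depth did, except for *CALCR*, which had from 8 to 46 counts per library. Levels are given as CPM, the counts of a gene relative to the library total, scaled by the trimmed mean of M-values (TMM). Changes are log2 fold changes of Perthes over control from the quasi-likelihood test of edgeR, with Benjamini-Hochberg adjustment over all tested genes, and a gene was called at an adjusted p below 0.05. Bone and cartilage RNA was present in every library. The 10 osteoblast and osteocyte markers summed to between 46421 and 145853 CPM, of which *COL1A1*, a collagen gene that fibroblasts also express, made up from 95.4% to 98.7%, and the other 9 were all above 0 in every library. The 10 cartilage markers summed to between 36646 and 149424 CPM, of which *COL2A1* made up from 78% to 91.3%, while *MATN1* was at 0.214 CPM or less and at 0 in at least 1 library. Control rabbit 1 stood apart in its neutrophil markers, with a summed level of 24734 CPM against 7745 and 7389 CPM in the other controls. As this was bulk tissue, fewer osteoclasts and less RNA per osteoclast cannot be told apart, nor can their opposites.

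The genes did not all change in the same way. *CTSK*, which encodes the main collagen-degrading protease of the osteoclast, rose 3.55-fold in Perthes rabbits. *DCSTAMP*, which encodes a membrane protein needed for precursors to fuse, rose 2.99-fold. *CA2*, which encodes the carbonic anhydrase that supplies protons for acid secretion, fell 3.26-fold. The other 6 tested genes did not pass the threshold, among them *ACP5*, which encodes tartrate-resistant acid phosphatase, the classical stain for osteoclasts. Of the 9 tested genes, 2 were called higher, against 6.21% of all genes tested, and 1 was called lower, against 8.86%. DESeq2 called 4 higher, against 9.74% of the genes for which it gave an adjusted p, and 1 lower, against 11%. Every Perthes rabbit was above every control for 2 of the 9 genes, against 11.2% of all genes, and below every control for 1, against 13.9%. The median log2 fold change was 0.88 over the 9 genes and 0.02 over all genes.

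**Figure D1:**
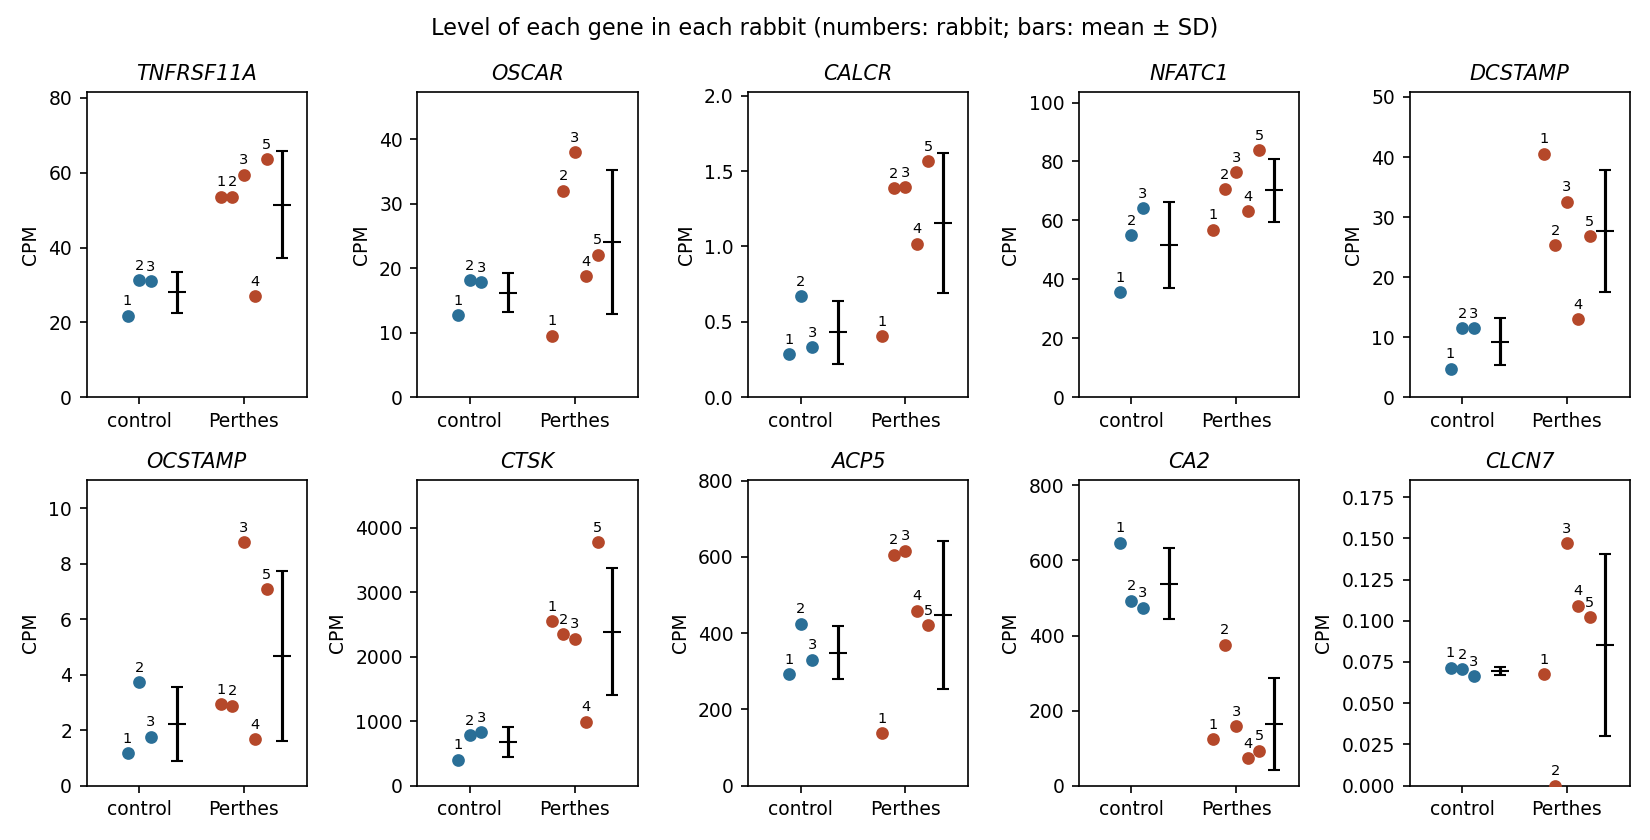
Level of each of the 10 genes in CPM (y axis, from 0, with a separate scale for each gene) in the control and Perthes rabbits. Points are rabbits with their numbers and bars are the mean ± SD. *CTSK* and *DCSTAMP* were higher and *CA2* lower in every Perthes rabbit than in every control, and the groups overlap for the other genes.

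The receptors on the surface of the osteoclast and its precursor were examined first. *TNFRSF11A*, which encodes RANK, was at 53.5, 53.6, 59.5, 27.0 and 63.6 CPM in Perthes rabbits 1 to 5 and at 21.8, 31.3 and 31.0 CPM in control rabbits 1 to 3. Perthes rabbit 4 was within the range of the controls, and the other 4 Perthes rabbits lay above it. Perthes rabbits had a mean of 51.5 ± 14.3 CPM (SD, n = 5) and controls one of 28.0 ± 5.39 CPM (SD, n = 3), with a log2 fold change of 0.88 ± 0.28 (SE) and an edgeR adjusted p of 0.0637. Without Perthes rabbit 4 the edgeR adjusted p was 0.0118, and the test of DESeq2 on all rabbits gave 0.0226, so that the call for the RANK receptor depended on 1 rabbit and on the tool.

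*OSCAR* encodes a costimulatory receptor that binds collagen, and a newer RefSeq annotation gives its symbol to another identifier than that of the row used here. It was at 9.56, 32.0, 38.0, 18.7 and 22.1 CPM in the Perthes rabbits and at 12.7, 18.1 and 17.9 CPM in the controls. Perthes rabbit 1 was the lowest of all 8 rabbits and the other 4 were above every control. The log2 fold change was 0.57 ± 0.40 (SE), with an edgeR adjusted p of 0.353, and its 95% interval reached from -0.32 to 1.46.

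*CALCR* encodes the calcitonin receptor, through which the hormone calcitonin halts resorption, and is a gene of the mature osteoclast. Its levels were 0.405, 1.39, 1.40, 1.02 and 1.57 CPM in the Perthes rabbits and 0.286, 0.670 and 0.333 CPM in the controls. Again Perthes rabbit 1 was the exception, within the range of the controls, while the other 4 lay above it. The log2 fold change was 1.42 ± 0.51 (SE) with an edgeR adjusted p of 0.0936, which became 0.0368 without Perthes rabbit 1 and 0.0421 with DESeq2.

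*NFATC1*, which encodes the transcription factor at the centre of the osteoclast programme, was at 56.9, 70.6, 76.4, 63.1 and 83.9 CPM in the Perthes rabbits and at 35.5, 54.9 and 64.2 CPM in the controls. The groups overlapped, since Perthes rabbits 1 and 4 were below control rabbit 3. Its log2 fold change was 0.44 ± 0.22 (SE), with an edgeR adjusted p of 0.198 and a 95% interval from -0.05 to 0.94. Among the tested genes *NFATC1* varied least between Perthes rabbits, with an SD of 0.22 on the log2 CPM scale.

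The genes of fusion differed in what could be called. *DCSTAMP* was at 40.6, 25.4, 32.6, 13.0 and 26.8 CPM in the Perthes rabbits and at 4.72, 11.5 and 11.5 CPM in the controls. Every Perthes rabbit was above every control, although rabbit 4 exceeded the highest control only slightly. The Perthes mean of 27.7 ± 10.1 CPM (SD, n = 5) was 2.99-fold that of the controls, 9.24 ± 3.92 CPM (SD, n = 3), with a log2 fold change of 1.58 ± 0.41 (SE) and an edgeR adjusted p of 0.0343. The exact two-sided permutation test over the 56 divisions of the rabbits gave p = 0.0357, the smallest that it can give with 5 against 3. The edgeR adjusted p rose above the threshold when Perthes rabbit 1, 3 or 5 or any control was left out, reaching from 0.0547 to 0.108, and the direction remained.

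*OCSTAMP*, which encodes the related fusion protein of the osteoclast, was much more variable. It was at 2.94, 2.88, 8.78, 1.67 and 7.08 CPM in the Perthes rabbits and at 1.18, 3.74 and 1.76 CPM in the controls. Only Perthes rabbits 3 and 5 lay above all controls. The log2 fold change was 1.07 ± 0.61 (SE) with an edgeR adjusted p of 0.258, and the 95% interval from -0.30 to 2.44 holds the change of *DCSTAMP*.

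The enzymes that are released onto bone were next compared. *CTSK* was at 2546, 2350.3, 2280.1, 991 and 3773 CPM in the Perthes rabbits and at 404, 783 and 831 CPM in the controls. All Perthes rabbits were above the controls, with rabbit 4 nearest to them and rabbit 5 farthest. The log2 fold change was 1.83 ± 0.44 (SE), with an edgeR adjusted p of 0.0272 and an exact permutation p of 0.0357, and the call was lost without Perthes rabbit 3 (adjusted p 0.0580), Perthes rabbit 5 (0.0575), control rabbit 1 (0.100) or control rabbit 2 (0.0860).

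*ACP5* was at 138, 606, 616, 459 and 421 CPM in the Perthes rabbits and at 292, 425 and 330.4 CPM in the controls. Perthes rabbit 1, whose *CTSK* and *DCSTAMP* levels were among the highest, had the lowest *ACP5* level of all rabbits. The group means were 448 ± 194 CPM in Perthes (SD, n = 5) and 349 ± 68.5 CPM in control rabbits (SD, n = 3), with a log2 fold change of 0.36 ± 0.42 (SE), a 95% interval from -0.59 to 1.31 and an edgeR adjusted p of 0.592. Without Perthes rabbit 1 the log2 fold change was 0.59 and the edgeR adjusted p 0.123.

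The remaining pair serves acid secretion. *CA2* was at 123, 375, 158, 73.5 and 93.5 CPM in the Perthes rabbits and at 647, 493 and 474 CPM in the controls. Every Perthes rabbit was below every control, and rabbit 2 was nearest to them. Perthes rabbits averaged 165 ± 122 CPM (SD, n = 5), which is 3.26-fold lower than the 538 ± 95.1 CPM of the controls (SD, n = 3), with a log2 fold change of -1.71 ± 0.48 (SE), an edgeR adjusted p of 0.0441 and an exact permutation p of 0.0357. The call was lost when any rabbit other than Perthes rabbit 2 was left out, with edgeR adjusted p-values from 0.0525 to 0.140, and without Perthes rabbit 2 the adjusted p was 0.0024.

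*CLCN7* encodes the exchanger that moves chloride alongside the protons. The row under this symbol held 2, 0, 4, 3 and 3 counts in the Perthes rabbits and 2 counts in each control, that is 12 and 6 counts in all. Both groups were at or near the floor of 3 counts per library, so no fold is given. The floor was 0.112 CPM in Perthes rabbit 2, the library with 0 counts, and covers counting error only. The same newer annotation gives the symbol *CLCN7* to a gene with another identifier, which was not analysed here.

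**Figure D2:**
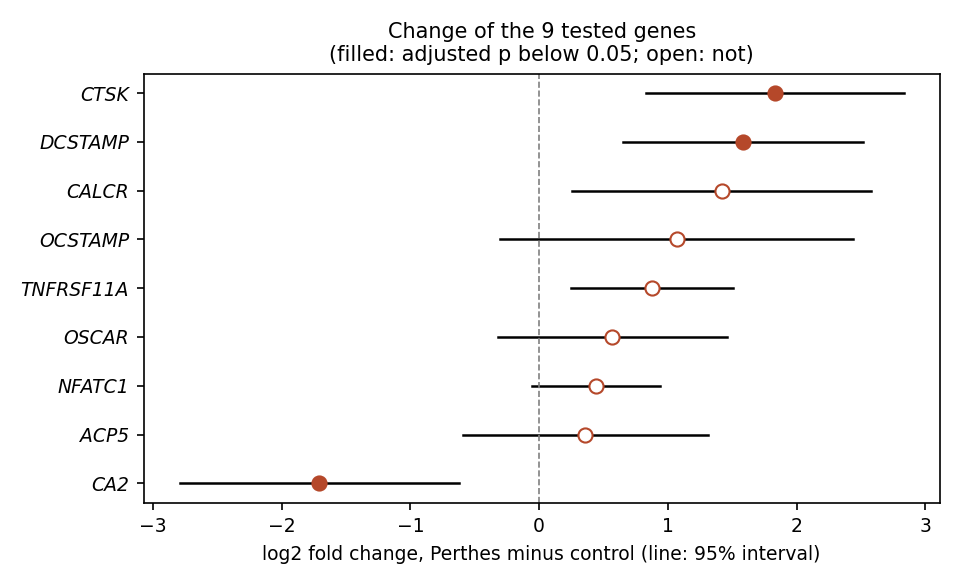
Log2 fold change of Perthes over control (x axis) for the 9 tested genes, with the 95% interval of the edgeR fit as a line and genes with an adjusted p below 0.05 as filled points. The intervals of *CTSK*, *DCSTAMP* and *CA2*, and those of the uncalled *CALCR* and *TNFRSF11A*, do not include 0.

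The 5 Perthes rabbits were not alike. Of the 8 tested genes other than *CA2*, all 8 were above the highest control in Perthes rabbit 3, 7 in each of rabbits 2 and 5, 5 in rabbit 4 and 3 in rabbit 1. Rabbits 1 and 4 were low in different genes. Rabbit 1 was the lowest Perthes rabbit for *OSCAR*, *CALCR*, *NFATC1* and *ACP5*, and it was below all controls for *OSCAR* and *ACP5*. Rabbit 4 was the lowest Perthes rabbit for the other 5 genes, *TNFRSF11A*, *DCSTAMP*, *OCSTAMP*, *CTSK* and *CA2*. Among the controls, rabbit 1 was the lowest for 8 of the 9 genes, and *CA2* was the exception. Summed osteoblast and osteocyte markers were also lowest of the Perthes group in rabbit 1, at 46421 CPM with and 1756 CPM without *COL1A1*, and summed cartilage markers were highest in Perthes rabbit 4, at 149424 CPM with and 32831 CPM without *COL2A1*. The part of either in the levels above was not tested.

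**Figure D3:**
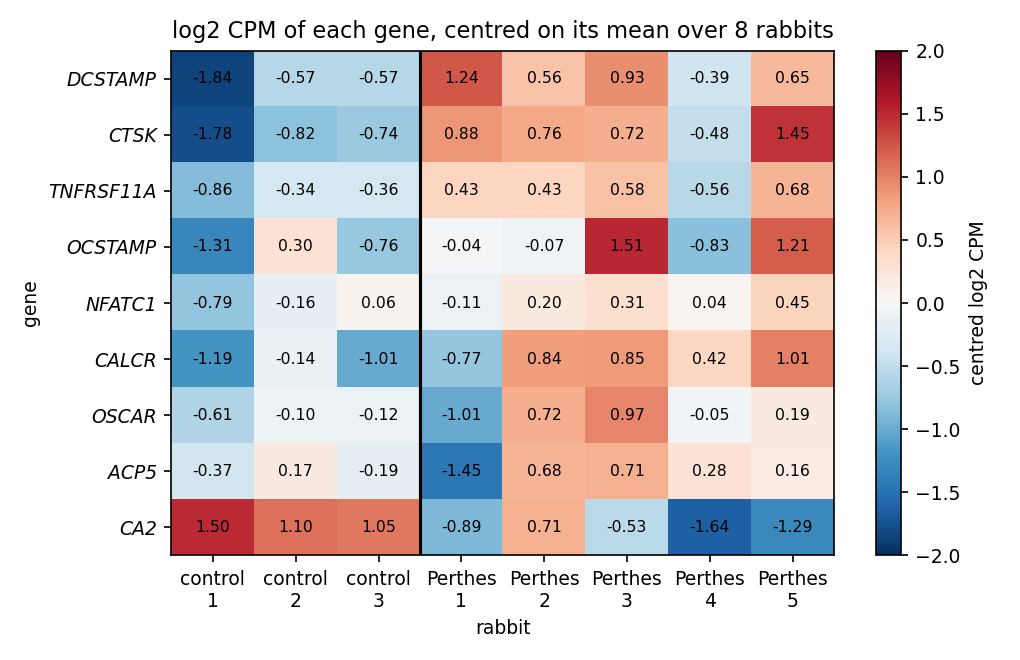
Log2 CPM of the 9 tested genes (rows) in each rabbit (columns), centred on the mean of the gene over the 8 rabbits, with colour and printed number giving the same value. Perthes rabbit 1 is low for *ACP5* (-1.45) and *OSCAR* (-1.01) and high for *DCSTAMP* (1.24), and control rabbit 1 is low for 8 of the 9 genes.

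The patterns over rabbits were then compared by the root mean square difference between the centred log2 CPM of a pair of genes over the 8 libraries, which is a description and was not tested. *ACP5* and *OSCAR* were the closest pair of the 9 genes, at 0.251. *CTSK* and *DCSTAMP* differed by 0.346, and *TNFRSF11A* and *NFATC1* by 0.361. By contrast *ACP5* and *CTSK*, both genes of the resorbing cell, differed by 1.17, and the widest pair was *CTSK* with *CA2* at 1.97.

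Among genes outside the 10, the nearest to *CTSK* were *SLC37A2*, a sugar phosphate transporter of macrophages and osteoclasts, at 0.212, *HSPB1*, a small heat shock protein, at 0.220 and *FBLIM1*, a filamin-binding protein, at 0.222. The nearest to *DCSTAMP* were *CH25H*, the enzyme that makes 25-hydroxycholesterol, at 0.170, *GM2A*, the lysosomal GM2 activator, at 0.171, and *AKAP6* at 0.173. The nearest to *TNFRSF11A* were *TMEM106A* at 0.118 and *CMTM3* at 0.125, which were called higher in Perthes, with log2 fold changes of 0.95 and 0.80 and edgeR adjusted p-values of 0.0377 and 0.0483.

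The axonemal dynein gene *DNAH5* was the nearest to *ACP5* and also to *OSCAR*, at 0.179 each. For *CA2* the nearest were *SLC24A1* at 0.282, the clotting factor VIII gene *F8* at 0.287 and *PNCK* at 0.292, each called lower, with log2 fold changes of -1.83, -1.89 and -2.19 and edgeR adjusted p-values of 0.0148, 0.0163 and 0.0417. The nearest to *NFATC1* was *APLNR*, the apelin receptor, at 0.124, then *MAGI1* and *SELENOM*. For the low genes the nearest were farther away, with *FSCN1* at 0.304 from *CALCR*, followed by *GSC* and *BIRC7*, and *RPL5* at 0.324 from *OCSTAMP*, followed by *MYH11* and *ADCYAP1R1*.

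The counts of the other genes were next set against those of *ACP5* in the same library, as a log2 ratio, to ask whether they moved together with it. Because the ratio contains the lengths of both transcripts, only its difference between rabbits can be read. For *CTSK* the log2 ratio was 4.20, 1.96, 1.89, 1.11 and 3.17 in the Perthes rabbits and 0.47, 0.88 and 1.33 in the controls. Perthes rabbit 4 lay among the controls. The mean log2 ratio was 1.57 higher in Perthes, or 2.97-fold, with an exact two-sided permutation p of 0.0714 and 0.143 after Benjamini-Hochberg adjustment over the 8 ratios. Without Perthes rabbit 1 the difference was 1.14.

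The ratio of *CALCR* to *ACP5* was nearly the same in Perthes rabbits 2, 3 and 4. Its log2 ratio to *ACP5* was -8.36, -8.75, -8.77, -8.79 and -8.05 in Perthes rabbits and -9.91, -9.27 and -9.89 in controls. Every Perthes rabbit, rabbit 1 included, was above every control, whereas the *CALCR* level alone overlapped. This rests on few *CALCR* counts, 8, 19 and 10 in the controls and 12 in Perthes rabbit 1, whose *ACP5* level was the lowest. The difference in the *CALCR* ratio was 1.14, with an exact permutation p of 0.0357 and an adjusted p of 0.143 over the 8 ratios. For *CA2* every Perthes rabbit was below every control, with a difference of -2.15 and the same pair of p-values. How often the ratio to *ACP5* separates the groups over all genes is not given here. On CPM the groups did not overlap for 25.2% of all genes tested.

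*OSCAR* stayed closest to *ACP5*. Its log2 ratio was from -4.61 to -3.85 in Perthes rabbits and from -4.55 to -4.21 in controls, and the difference of 0.23 had an exact permutation p of 0.357. The differences for *DCSTAMP*, *OCSTAMP*, *TNFRSF11A* and *NFATC1* were 1.39, 0.76, 0.63 and 0.27, with exact permutation p-values of 0.0714, 0.321, 0.393 and 0.679. Without Perthes rabbit 1, which had the lowest *ACP5* level, these 4 differences were 0.85, 0.48, 0.22 and -0.04, so that the sign turned for *NFATC1*, whereas that of *CA2* was -2.49. No ratio passed 0.05 after adjustment.

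**Figure D4:**
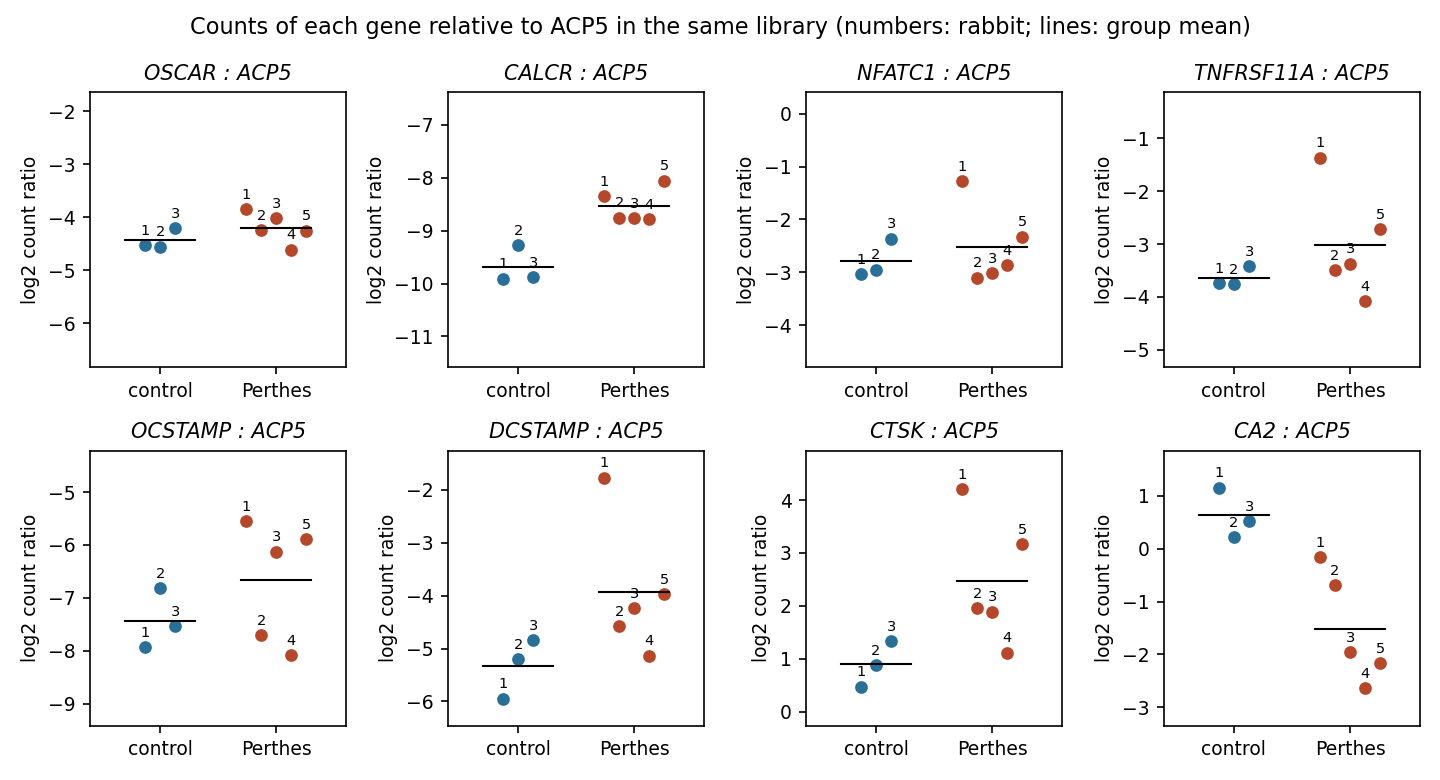
Log2 ratio of the counts of each gene to those of *ACP5* in the same library (y axis, all panels with the same span) in control and Perthes rabbits. Points are rabbits with their numbers and lines are group means. *OSCAR* differs by 0.23 between groups, whereas Perthes rabbits lie above all controls for *CALCR* and below all controls for *CA2*.

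Markers of the macrophage lineage, from which osteoclasts form, and of some other cells also differed between the groups. Of the 10 macrophage markers, edgeR called 5 higher and 0 lower, and DESeq2 called 6 higher and 1 lower. *MARCO* went the other way, with a log2 fold change of -2.19 ± 0.66 (SE) and an edgeR adjusted p of 0.0542. *CD163* and *ADGRE1* had log2 fold changes of 0.19 and 0.31. The 10 summed to 1902, 996, 1339, 497 and 1763 CPM in the Perthes rabbits and to 407 to 479.8 CPM in the controls. No marker was at 0 in any library. Without *CSF1R*, which contributed most, the sums overlapped, at 311 CPM in Perthes rabbit 4 and 323 CPM in control rabbit 1. Perthes rabbit 4 had the lowest sum of its group, as it had the lowest *CTSK* and *DCSTAMP*. The 10 fibroblast markers, of which 4 were called higher, had sums of 28391, 17328, 18209, 23877 and 22192 CPM in the Perthes rabbits against 2557 to 10797 CPM, and *CTSK* is also made by fibroblasts. Here Perthes rabbit 4 had the highest sum but 1, unlike its *CTSK* level. The part of macrophages and fibroblasts in the higher *CTSK* and *DCSTAMP* levels was not tested.

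*CA2* is abundant in red cells and their precursors as well as in osteoclasts. All 10 erythroid markers were lower in every Perthes rabbit than in every control, and 2 of them were called lower by edgeR and 6 by DESeq2. Their summed level was 676, 3023, 852, 1028 and 664 CPM in the Perthes rabbits and 6789, 6720.0 and 6225 CPM in the controls. *TFRC* alone was at 427 to 641 CPM in the Perthes rabbits and fell least. Its log2 fold change was -0.67, against a median of -3.04 over the list. Perthes rabbit 2 had the highest sum of its group, as it had the highest *CA2*. Perthes rabbit 4 had the next highest sum, but the lowest *CA2*, at 73.5 CPM. None of these markers was at 0 in any library, and the part of red cell precursors in the lower *CA2* level was not tested.

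Neutrophil markers were lower as well. All 8 measured were lower in every Perthes rabbit than in every control, with a median log2 fold change of -3.73, and 3 were called lower by edgeR and 8 by DESeq2. They summed to 30.0, 2001, 743, 1943 and 212 CPM in the Perthes rabbits and to 24734, 7745 and 7389 CPM in the controls, and none was at 0 in any library. Their part in the lower levels of *RAC2*, *RAB3D* and *BTK*, which are given with the gene lists that follow and were also highest in control rabbit 1, was not tested.

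The wider machinery of the osteoclast was described through 9 lists with 121 tested genes outside the 10. In all, 22 were called higher, or 18.2% against 6.21% of all genes, and 4 lower, or 3.31% against 8.86%, with a median log2 fold change of 0.32. DESeq2 called 35 higher and 8 lower, against 9.74% and 11% of the genes for which it gave an adjusted p. Every one of these edgeR calls was lost when control rabbit 1 or control rabbit 2 was left out, fits in which 73 and 0 genes of the whole table were called higher and 184 and 0 lower. The annotation that the table itself carries was also read, after the 10 genes were removed. Of 120 tested genes of KEGG osteoclast differentiation, 10 were called higher (8.33%) and 4 lower (3.33%). Of 52 genes under GO terms that name osteoclasts or bone resorption, 5 were called higher (9.62%) and 2 lower (3.85%). Both shares called higher were nearer to the 6.21% of all genes than to the 18.2% of the 9 lists.

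The list of bone matrix breakdown had 4 of 10 tested genes called higher and 0 lower, with a median log2 fold change of 1.24. The cathepsin genes *CTSS* and *CTSB*, which encode lysosomal cysteine proteases that macrophages also make, rose with log2 fold changes of 2.74 ± 0.62 and 2.61 ± 0.58 (SE) and edgeR adjusted p-values of 0.0218 and 0.0209. *MMP9*, the gelatinase that osteoclasts release in quantity, was at 483, 1267, 1205, 1308 and 1390.4 CPM in Perthes rabbits and at 605, 1146 and 937 CPM in controls. Its groups overlapped and Perthes rabbit 1 was the lowest of all rabbits, as it was for *ACP5* and *OSCAR*, with a log2 fold change of 0.34 ± 0.36 (SE) and an edgeR adjusted p of 0.558.

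The list of acid secretion had 7 of 19 tested genes called higher and 2 lower, with a median of 0.89. *ATP6V1H*, a subunit of the vacuolar proton pump, rose with a log2 fold change of 1.77 ± 0.42 (SE) and an edgeR adjusted p of 0.0247, and *OSTM1*, whose product is the partner subunit of the *CLCN7* exchanger, rose with 1.61 ± 0.41 (SE) and 0.0308. *OSTM1* was at 15.1 CPM in Perthes rabbit 4, below control rabbit 1 at 16.9 CPM, and the other Perthes rabbits were at 40.2 CPM or more. *RAB3D*, a secretory vesicle GTPase, and *CLCN3*, another chloride exchanger, fell with log2 fold changes of -2.56 ± 0.54 and -0.83 ± 0.23 (SE) and edgeR adjusted p-values of 0.0177 and 0.0394. *RAB3D* was at 51.3 CPM in control rabbit 1 and at 20.0 and 14.8 CPM in the other controls, in the same order as the summed neutrophil markers. *TCIRG1*, the osteoclast subunit of the proton pump, was not analysed here.

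The fusion list had 2 of 11 tested genes called higher and 1 lower. *TM4SF19*, a four-span membrane protein, was at 30.4 ± 16.4 CPM in Perthes (SD, n = 5) and at 4.68 ± 1.70 CPM in control rabbits (SD, n = 3) and rose, with a log2 fold change of 2.70 ± 0.55 (SE) and an edgeR adjusted p of 0.0166, and the tetraspanin gene *CD9* rose with 1.39 ± 0.34 (SE) and 0.0276. *RAC2*, a GTPase of blood cells, fell with -1.34 ± 0.31 (SE) and an edgeR adjusted p of 0.0236. *ATP6V0D2*, which encodes a proton pump subunit that is also needed for fusion, was at 562, 103, 249, 63.0 and 140.0 CPM in the Perthes rabbits and at 15.0, 35.8 and 56.2 CPM in the controls. All Perthes rabbits were above the controls, and the log2 fold change of 2.65 ± 0.78 (SE) had an edgeR adjusted p of 0.0501, just short of the threshold, and of 0.000738 with DESeq2. In the list of attachment and the sealing zone, 2 of 15 were called higher and 0 lower, namely the integrin gene *ITGAV* (log2 fold change 1.05 ± 0.27, SE) and the cortactin gene *CTTN* (0.65 ± 0.17, SE), with edgeR adjusted p-values of 0.0313 and 0.0346, and the median was -0.18. The call of *CTTN* was lost when libraries were scaled by their totals alone, with an edgeR adjusted p of 0.0588.

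The signals upstream of these genes were described last. In the RANK list 1 of 21 tested genes, *SQSTM1*, which encodes the adaptor p62, was called higher, with a log2 fold change of 1.28 ± 0.24 (SE) and an edgeR adjusted p of 0.0141, and the median was 0.03. *TNFSF11*, which encodes RANK ligand, had a log2 fold change of 0.86 ± 0.64 (SE) and an edgeR adjusted p of 0.384. Its decoy receptor gene *TNFRSF11B* was at 118, 29.2, 34.8, 429 and 93.4 CPM in Perthes rabbits and at 8.22, 22.8 and 28.4 CPM in controls, with every Perthes rabbit above the controls and an adjusted p of 0.0757 by edgeR and 0.00248 by DESeq2.

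Among costimulatory genes, 1 of 11 was called higher and 1 lower. *TREM2*, which encodes a receptor of macrophages and osteoclasts, is listed under the identifier LOC100348748 and was at 196, 108, 156, 15.2 and 184 CPM in Perthes rabbits and at 2.72, 2.57 and 3.49 CPM in controls. It rose with a log2 fold change of 5.49 ± 0.82 (SE) and an edgeR adjusted p of 0.0118, and Perthes rabbit 4 was again the lowest of its group. *TYROBP*, the adaptor through which TREM2 signals, had 0.79 ± 0.45 (SE) and an adjusted p of 0.263. *BTK*, a kinase of B cells and osteoclast precursors, fell with -1.34 ± 0.29 (SE) and an edgeR adjusted p of 0.0185.

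Of 18 tested transcription factor genes, 3 were called higher and 0 lower. *MITF*, whose product acts on *ACP5* and *CTSK* in osteoclasts, was at 91.9, 33.8, 51.7, 17.7 and 79.2 CPM in the Perthes rabbits and at 7.68, 14.2 and 17.9 CPM in the controls, and it rose with a log2 fold change of 2.05 ± 0.54 (SE) and an edgeR adjusted p of 0.0363. Perthes rabbit 4 was just below the highest control. *JUN*, part of the AP-1 factor, rose with 1.45 ± 0.32 (SE) and 0.0201, whereas *SPI1*, the PU.1 gene of the whole myeloid lineage, had 0.07 ± 0.37 (SE) and an adjusted p of 0.908. *IRF8*, which encodes an inhibitor of osteoclast formation, had a log2 fold change of -0.21 ± 0.39 (SE) and an adjusted p of 0.745. Of 4 tested genes in the list of calcitonin receptor partners, *ADM*, the adrenomedullin gene, was called higher, with 2.41 ± 0.58 (SE) and an edgeR adjusted p of 0.0269.

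**Figure D5:**
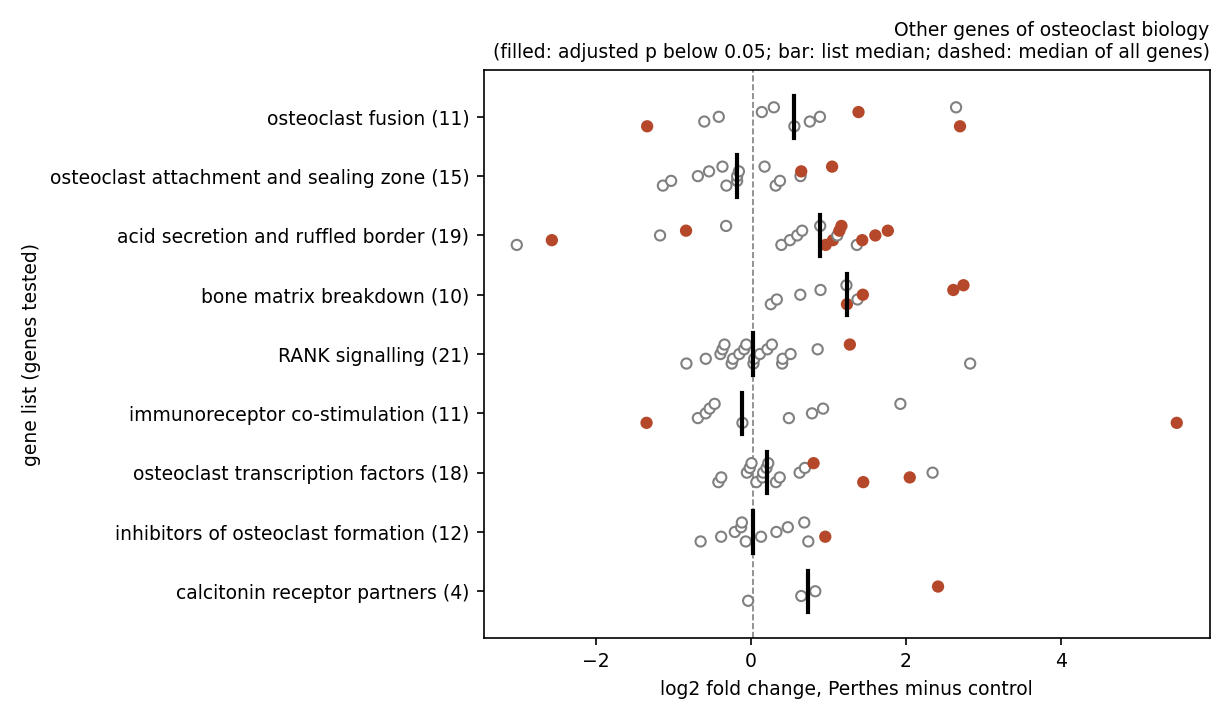
Log2 fold change of Perthes over control (x axis) for each tested gene of 9 lists of osteoclast biology (rows, with the number tested). Filled points have an adjusted p below 0.05, bars are list medians and the dashed line is the median of all genes at 0.02. The medians of matrix breakdown (1.24) and acid secretion (0.89) lie farthest to the right, and that of RANK signalling (0.03) is at the median of all genes.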

How the data were processed

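Total RNA of 8 femoral heads was depleted of ribosomal RNA and sequenced from directional libraries. Reads were mapped with HISAT2 2.0.4, and genes were quantified with HTSeq 1.99.2 and RSEM 1.1.17. The authors deposited expected counts per gene, without normalization, of which 10.0% to 10.7% per library were not whole, and all were rounded. A further 8 columns repeat the values and were not used. Control rabbit 3 is coded 3 but titled 2 in the labels. The small RNA libraries were not used here.

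The 10 genes, the lists and the tests were chosen with earlier results of these data known, and the ratio to *ACP5* was added after the data were seen. Counts were analysed with edgeR 4.0.16 in R 4.3.3 (TMM, filterByExpr by group, quasi-likelihood F-test, no covariate) on 15305 genes. Alternatives were DESeq2 1.42.0, other scalings and filters, a replicate block, and leaving out each rabbit. The steps were tested on simulated counts. Exact permutation tests were two-sided on mean log2 CPM, or on log2 ratios with a pseudocount of 0.5. No adjustment over a list alone was made. At the thresholds of the study (log2 fold change beyond 2, adjusted p below 1e-05) edgeR called 0 genes, with 4883 at an unadjusted p below 0.05. The study applied these thresholds with DESeq2, another tool, and reported genes in both directions. A DESeq2 count at these thresholds is not given here. Besides the 10 genes, the text names the 2 genes with the largest changes per direction among those called in each list, 9 fixed genes, and the 3 genes nearest to each tested gene, except 1 gene that is not reported here. Of the 10 genes, 8 (all but *OSCAR* and *CLCN7*) carry the same identifier in RefSeq's annotation of mOryCun1.1, another assembly, whose coordinates were not used. Promoter and protein sequences were not analysed here. Nothing in the labels names a batch.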

Additional observations from a re-analysis of the deposited data

Results flagged for a closer look

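Of 34 genes examined, 4 had 1 Perthes rabbit far from the other 4, with a gap to its nearest neighbour, as a share of the range of the group, above 0.71, Dixon's 95% critical value for 5 samples. For *TNFRSF11A* rabbit 4 (27.0 CPM) had a share of 0.724. For *CA2* it was rabbit 2 (375 CPM), at 0.719. For *TNFRSF11B* rabbit 4 (429 CPM) had 0.778, and for *MMP9* rabbit 1 (483 CPM) had 0.795. For normally distributed values chance alone flags about 1 in 20 groups. The shares were taken on CPM rather than log2 CPM, so this rate need not hold here.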

How the results depend on the processing

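All 9 tested genes kept their direction under every alternative that tested them. With DESeq2, 4 of the genes were called higher (*TNFRSF11A* and *CALCR* in addition) and 1 lower, and 35 and 8 of the other osteoclast genes. Leaving out each rabbit in turn gave from 0 to 3 of the genes called higher, 0 without Perthes rabbit 3 or 5 or control rabbit 1 or 2, 1 without control rabbit 3 and 3 without Perthes rabbit 4, and from 0 to 1 called lower, 1 only without Perthes rabbit 2. These counts moved with those of the whole table, where 951 genes were called higher with all rabbits, 385 and 351 without Perthes rabbit 3 and 5, 73, 0 and 695 without control rabbit 1, 2 and 3, and 1267 without Perthes rabbit 4. At an unadjusted p below 0.05, edgeR then had 4 higher without Perthes rabbit 3 or 5, 2 without control rabbit 1 and 5 without control rabbit 2, and 1 lower each. The other osteoclast genes gave from 0 to 29 higher and from 0 to 6 lower, with 6 and 2 without Perthes rabbit 3, 7 and 1 without Perthes rabbit 5, and 0 and 0 without control rabbit 1 or 2, where 36 and 5 or 34 and 11 had an unadjusted p below 0.05. *SPI1* changed sign in 4 of these fits, its log2 fold change being -0.14 without Perthes rabbit 1, -0.0073 without Perthes rabbit 5, -0.061 without control rabbit 2 and -0.12 without control rabbit 3, and at most 0.47 without control rabbit 1, and *IRF8* ranged from -0.44 without control rabbit 3 to 0.18 without control rabbit 1. The cause was not tested.

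With the replicate number as a block, 0 genes of the table were called (edgeR), so 0 of the genes were higher and 0 lower, and 0 and 0 of the other osteoclast genes, with 3 and 1, and 32 and 6, at an unadjusted p below 0.05 (9.83% and 10.8% of all genes), and *IRF8* was at 0.060. The labels do not say whether equal numbers pair the rabbits. Deviations of same-numbered rabbits correlated at -0.317, 0.161 and -0.238, and 1 of 6 rabbits correlated best with its own number. With only 3 controls these values cannot settle whether the numbers pair. With library totals alone the split over all genes was 678 higher and 1705 lower, against 951 and 1356 with TMM, and that of the other osteoclast genes 17 and 6. Depth limited only *CLCN7* and *CALCR*, the latter not tested when every library had to hold at least 10 counts.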
